A study of Mus musculus with 20 samples.

Results

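The comparison set 4 RNA-seq libraries of the cell population labelled Misc against 2 libraries of the population labelled SMP, both from DKO mouse muscle. The members were chosen by their sample titles, and they are 6 of the 20 libraries of the series. The design text calls the libraries biological replicates. The p-values rest on a spread between replicates that was estimated over all 20 libraries, not over these 6 alone. All 6 came from the quadriceps, tibialis anterior and gastrocnemius, and both groups carry the DKO condition, so the comparison is between populations within the mutant. The WT libraries of the same populations, 4 of Misc and 2 of SMP, served as the second genotype, and the remaining libraries, of a population labelled FAP, entered the model only to estimate the spread. What DKO abbreviates is not spelled out; from background on this kind of study it is read here, as an assumption, as the combined loss of desmin (Des) and nesprin 1 (Syne1). The sources used here do not give the sorting of the populations, the age and strain of the mice, or any pooling of animals. SMP is a usual short form of skeletal muscle progenitor. The design text lists a population FB where the labels have Misc, and no label ties the names, so Misc is used throughout.

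Skeletal muscle keeps a pool of quiescent stem cells, the satellite cells, under the basement membrane of each fibre. They are marked by the transcription factor Pax7, and after injury they switch on the MyoD family of factors, divide, and fuse into fibres. Tendon cells are fibroblasts that lay down parallel collagen fibrils at the ends of the muscle, and their formation depends on the transcription factor scleraxis (Scx). Their typical secreted or membrane products include tenomodulin (Tnmd), fibromodulin (Fmod) and the thrombospondins. In fibrotic muscle several mesenchymal cell types produce collagen, and the series title names the question of which cells express matrix in which niche.

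The genes assumed to be deleted were read first. Des RNA was at 1.37, 2.27, 1.56 and 1.42 CPM (counts scaled to a common library size, with TMM factors) in Misc DKO and at 75.4 and 54.2 CPM in SMP DKO. In WT muscle it was at 4.66, 3.94, 4.74 and 2.16 CPM in Misc and at 171 and 184 CPM in SMP. Des transcript was below the WT range in both SMP DKO libraries, while in Misc the DKO and WT libraries overlapped. It was at 0 in none of them, and gene-level counts do not show which exons the reads came from. Syne1, whose product ties nuclei to the cytoskeleton, was at 67.1, 62.1, 59.2 and 75.5 CPM in Misc DKO and 37.0 and 35.9 CPM in SMP DKO, against 129.8, 91.8, 117 and 85.5 CPM in Misc WT and 79.5 and 69.2 CPM in SMP WT.

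The Misc DKO libraries held 8360658 to 8492813 counts, and the SMP DKO libraries held 6124928 (replicate 1) and 5826000 (replicate 2). Log CPM correlated at 0.977 to 0.983 between Misc DKO libraries and at 0.95 between the SMP DKO libraries. SMP DKO replicate 2 carried more RNA of some other cell types than replicate 1 did. Summed over the leukocyte list, Misc DKO libraries reached 24.3 to 45.4 CPM, while SMP DKO replicate 1 had 47.2 and replicate 2 had 1142 CPM. At least 4 times more CPM in replicate 2 than in replicate 1 (with 1 CPM added to each) was found for 250 genes, and the opposite for 2 genes. Every difference was therefore also tested against SMP DKO replicate 1 alone, a fit in which the single SMP DKO library is assumed to vary like the other groups. Unless the text says otherwise, each gene named below as higher or lower kept its direction and its call in that fit. Where that fit moved a fold change by over 1.5 times, its log2 fold change follows in square brackets or in words. Misc DKO replicate 3 differed from the other compared libraries in sex-linked RNA. Its Xist, the RNA of the inactive X, was at 0.360 CPM and its Y-linked Ddx3y at 89.6 CPM, whereas the other 3 Misc DKO and both SMP DKO libraries had Xist at 374 to 845 CPM and Ddx3y at 0 to 0.130 CPM.

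Of 14179 genes tested, 8432 differed between Misc DKO and SMP DKO at an adjusted p below 0.05 (quasi-likelihood test of edgeR, Benjamini-Hochberg adjustment), a background of 59.5%. Of these, 4226 (29.8% of the genes tested) were higher in Misc DKO and 4206 (29.7%) were lower. These shares are the background for every list count below that uses both SMP DKO libraries. Some genes stand in several lists, so the list counts are not independent of each other. The change was at least 2-fold for 2354 of the higher and 2129 of the lower genes. Without regard to the test, all 4 Misc DKO libraries stood above both SMP DKO libraries at 4610 genes (32.5%) and below both at 4419 genes (31.2%). Against SMP DKO replicate 1 alone, 3888 genes (27.4%) were higher and 3576 (25.2%) were lower. Of the original calls, 3560 higher and 3429 lower genes were called again in the same direction, 666 and 775 were no longer called, and 2 were called the other way. Among the 775 lower calls that did not hold, 131 had at least 4 times more CPM in replicate 2 than in replicate 1; among the 3429 that held, 16 did. Scaling by library totals in place of TMM lowered the share of calls that were higher in Misc DKO to 33.0%, against 50.1% here, and shifted the median log2 fold change of all genes to −0.283, against 0.031 here.

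**Figure D1:**
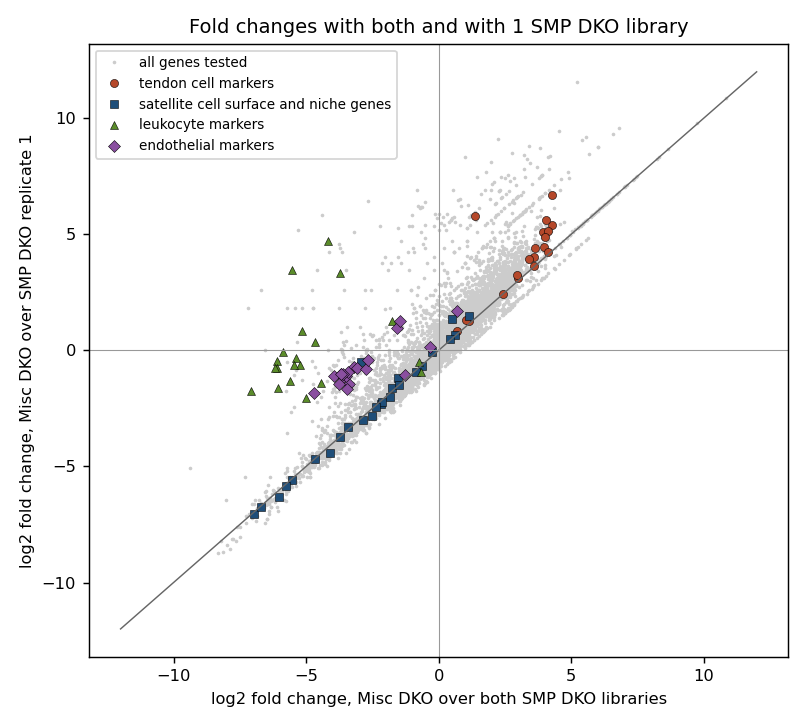
Log2 fold change of every gene tested, with both SMP DKO libraries (x axis) and with SMP DKO replicate 1 alone (y axis); positive values are higher in Misc DKO and the diagonal marks equality. Satellite cell genes lie near the diagonal and tendon genes on or above it, while leukocyte and endothelial markers lie far above it, with list medians of −5.31 and −3.39 on the x axis and −0.57 and −1.01 on the y axis.

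Tendon genes were higher in Misc DKO almost without exception. Of 19 tendon markers tested, 18 were called higher and 0 lower, where 29.8% of all genes were called higher, with a median log2 fold change of 3.61 against 0.03 over all genes. Against SMP DKO replicate 1 alone all 19 were called higher, with a median of 4.23. Tnmd, an antiangiogenic membrane protein of mature tendon (chrX:133851008-133865577, coordinates here and below in GRCm38.p6, the assembly named mm10), was at 2138, 1744, 1929.8 and 2099.6 CPM in Misc DKO and 92.1 and 160.4 CPM in SMP DKO (log2 fold change 3.97, SE 0.31, adjusted p = 1.6e-09). The lowest Misc DKO library was over 10 times the higher SMP DKO library, and the value against replicate 1 alone was 4.43 (adjusted p = 1.9e-08). Scx (chr15:76457411-76459468) was at 138, 93.0, 143 and 97.6 CPM in Misc DKO and 9.62 and 9.63 CPM in SMP DKO (log2 fold change 3.61, SE 0.25, adjusted p = 7.4e-11), and the groups did not overlap. The value of Scx against replicate 1 alone, 3.62 (adjusted p = 1.1e-08), was nearly the same, and the SMP DKO libraries were at almost one level. Mkx, mohawk, a homeobox factor that keeps tendon cells in their fate, was at 123, 114, 113 and 103 CPM in Misc DKO and 6.06 and 6.82 CPM in SMP DKO (log2 fold change 4.14, SE 0.21, adjusted p = 1.8e-13), again with no overlap, and its value against replicate 1 alone was 4.23 (adjusted p = 1e-11).

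Several tendon genes with high fold changes encode secreted proteins. Fmod, a proteoglycan that controls collagen fibril width (chr1:134037254-134048280), was at 20629, 17786, 18372 and 27691 CPM in Misc DKO and 499.6 and 1678 CPM in SMP DKO (log2 fold change 4.28, SE 0.41, adjusted p = 6e-08). Angptl7, an angiopoietin-like secreted protein (chr4:148495181-148500462), was at 1281, 1449, 1589.6 and 1906 CPM in Misc DKO and 15.0 and 148 CPM in SMP DKO (log2 fold change 4.26, SE 0.65, adjusted p = 4.9e-05). Both had no overlap between the groups, and in both SMP DKO replicate 2 was several times above replicate 1, so the fold change against replicate 1 alone was larger, at 5.41 for Fmod and 6.70 for Angptl7. Chad, chondroadherin, a leucine-rich protein of cartilage and tendon, was at 800.5, 693, 746 and 1249 CPM in Misc DKO and 24.8 and 76.0 CPM in SMP DKO (log2 fold change 4.12 [5.15], SE 0.44, adjusted p = 5.9e-07). Comp, cartilage oligomeric matrix protein, was at 1609.7, 862, 918 and 1916 CPM in Misc DKO and 27.0 and 133 CPM in SMP DKO (log2 fold change 4.06 [5.63], SE 0.52, adjusted p = 7.5e-06). Kera, keratocan, was at 1349, 760.2, 1084 and 1424 CPM in Misc DKO and 33.5 and 118 CPM in SMP DKO (log2 fold change 3.93 [5.12], SE 0.52, adjusted p = 9e-06). Misc DKO replicates 1 and 4 were higher than replicates 2 and 3 for Comp and Kera, yet each stood above both SMP DKO libraries. Thbs4, thrombospondin 4, a glycoprotein of tendon and of the muscle-tendon junction, was at 29314, 29579, 28368 and 39112 CPM in Misc DKO and 1963 and 3212 CPM in SMP DKO (log2 fold change 3.61, SE 0.25, adjusted p = 1.8e-11). Misc DKO replicate 4 was the highest of the 4 for Thbs4, and the value against SMP DKO replicate 1 alone was 4.02 (adjusted p = 3.1e-11).

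SMP DKO libraries were not free of tendon RNA. Over the 18 tendon genes called higher, the level in SMP DKO replicate 1 was 0.965% to 56.4% of the Misc DKO mean, with a median of 5.78%. In replicate 2 it was 6.01% to 66.0%, with a median of 10.2%. The share was lowest in replicate 1 for Angptl7 and lowest in replicate 2 for Mkx. The 1 tendon marker that was not called with both libraries was Col14a1, collagen XIV, at 245, 174, 149 and 179.6 CPM in Misc DKO and 3.43 and 143 CPM in SMP DKO (log2 fold change 1.36, SE 0.72, adjusted p = 0.12). Replicate 2 stood just below the lowest Misc DKO library for Col14a1, and against replicate 1 alone the value was 5.77 (adjusted p = 1.8e-12).

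**Figure D2:**
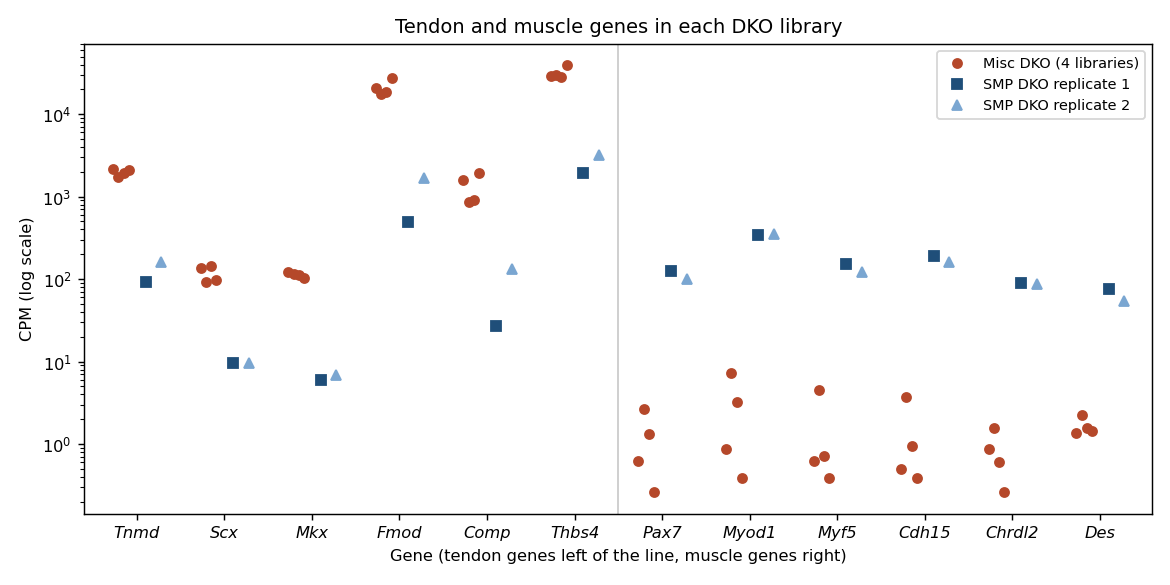
CPM on a log scale of 6 tendon genes and 6 muscle genes in the 4 Misc DKO libraries (circles), SMP DKO replicate 1 (squares) and SMP DKO replicate 2 (triangles). Each tendon gene is higher in every Misc DKO library, from Tnmd at 1744 CPM or more against 160.4 CPM or less, and each muscle gene is lower in every Misc DKO library, as for Pax7 at 2.63 CPM or less against 100.2 CPM or more.

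Promoter sequence is shown for genes at opposite ends of the comparison, because the MyoD family and scleraxis belong to the basic helix-loop-helix factors, which bind the E-box CANNTG. Pax3 and Pitx3 were the myogenic genes with the lowest fold change, and Fmod and Angptl7 the tendon genes with the highest. Tnmd, Scx and Pax7 were picked as markers. Pax3 and Scx had no window in the promoter set. Of the rest, the windows of Fmod, Angptl7, Tnmd and Pitx3 follow. They run from 250 bases before to 50 bases after the gene start, 5′ to 3′ on the gene's strand, from RefSeq on GRCm38.p6, with each CANNTG in capitals.
Fmod (chr1:134037004-134037303, plus strand): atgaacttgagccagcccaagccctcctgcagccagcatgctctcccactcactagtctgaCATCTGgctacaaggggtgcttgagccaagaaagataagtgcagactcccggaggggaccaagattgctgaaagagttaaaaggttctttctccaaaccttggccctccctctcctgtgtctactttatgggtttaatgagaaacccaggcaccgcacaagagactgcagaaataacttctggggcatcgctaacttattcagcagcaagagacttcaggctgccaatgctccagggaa
Angptl7 (chr4:148500413-148500712, minus strand): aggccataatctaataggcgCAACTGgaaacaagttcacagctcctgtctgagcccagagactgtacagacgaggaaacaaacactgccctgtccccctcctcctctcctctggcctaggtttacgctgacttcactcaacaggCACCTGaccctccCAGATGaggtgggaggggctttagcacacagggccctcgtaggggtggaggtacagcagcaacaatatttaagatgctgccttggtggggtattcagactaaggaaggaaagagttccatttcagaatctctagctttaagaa
Tnmd (chrX:133850758-133851057, plus strand): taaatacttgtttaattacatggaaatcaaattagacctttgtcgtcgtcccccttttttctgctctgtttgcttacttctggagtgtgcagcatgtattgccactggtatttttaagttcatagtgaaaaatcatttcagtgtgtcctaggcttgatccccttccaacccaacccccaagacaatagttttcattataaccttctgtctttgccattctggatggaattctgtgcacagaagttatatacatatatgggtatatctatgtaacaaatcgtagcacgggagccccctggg
Pitx3 (chr19:46148276-46148575, minus strand): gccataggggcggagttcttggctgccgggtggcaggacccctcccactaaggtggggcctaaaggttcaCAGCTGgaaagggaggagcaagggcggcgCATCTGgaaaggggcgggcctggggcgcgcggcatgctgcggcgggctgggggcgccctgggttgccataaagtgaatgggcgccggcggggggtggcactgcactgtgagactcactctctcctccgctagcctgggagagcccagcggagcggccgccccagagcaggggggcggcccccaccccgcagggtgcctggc
The windows of Fmod, Angptl7, Tnmd and Pitx3 held 1, 3, 0 and 2 E-boxes. The window of the muscle marker Pax7, searched but not printed, held 0. CANNTG reads the same on both strands, and 72.1% of 27025 promoter windows (the first of each gene) held at least 1. CAGCTG, a form of CANNTG preferred by MyoD, occurred once, in Pitx3, and in 16.1% of all windows. It was in 16.9% of the windows of genes called higher in Misc DKO and 14.6% of those called lower. TATAAA, searched on both strands, was in none of the 4 windows and in 14.2% of all. These matches describe the letters of short windows only.

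Fibrillar and other collagens followed the tendon genes. Of 11 fibrillar collagen genes, 10 were higher in Misc DKO and 0 lower (median log2 fold change 2.27), and 10 were higher against replicate 1 alone. Col1a1, the main chain of type I collagen, was at 30513, 18834, 19400.0 and 26610.0 CPM in Misc DKO and 1156 and 2639 CPM in SMP DKO (log2 fold change 3.65, SE 0.29, adjusted p = 5.1e-10). Col1a2, its partner chain, was at 36802, 26460.0, 26030.0 and 31812 CPM in Misc DKO and 1297 and 3298 CPM in SMP DKO (log2 fold change 3.72, SE 0.29, adjusted p = 2.7e-10). Col3a1, the collagen of early scar and of reticular fibres, differed less, at 11337, 8829, 9665 and 8198 CPM in Misc DKO and 1935 and 3182 CPM in SMP DKO (log2 fold change 1.89, SE 0.21, adjusted p = 6.3e-08). The groups did not overlap for these 3 genes, and against replicate 1 alone the values were 4.38 for Col1a1, 4.55 for Col1a2 and 2.31 for Col3a1. Summed over the list, fibrillar collagens took 60359 to 86491 CPM in Misc DKO, against 6317 and 11525 CPM in SMP DKO. The cartilage collagens Col2a1 and Col11a2 were also higher in Misc DKO, by 3.71 [4.53] and 3.90 [4.63] log2.

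Among 22 other collagens, 13 were higher and 4 lower (median 1.96), and 15 and 4 were so against replicate 1 alone (median 2.71). Col6a3, a chain of the beaded-filament collagen around cells, was at 3235, 3197, 2985 and 2705 CPM in Misc DKO and 210.2 and 474 CPM in SMP DKO (log2 fold change 3.15 [3.86], SE 0.23, adjusted p = 7.9e-11). Col8a2, a short-chain collagen, and Col13a1, a membrane collagen, rose by 3.63 [4.61] and 3.20 log2. Col19a1, a collagen found near basement membranes, went the other way, at 0.124, 1.80, 0.599 and 0 CPM in Misc DKO and 60.7 and 32.9 CPM in SMP DKO (log2 fold change −6.16, SE 0.50, adjusted p = 1.1e-08). It was under 2 CPM in each Misc DKO library, and the value against replicate 1 alone was −6.52 (adjusted p = 2.8e-09). Col25a1, a transmembrane collagen, was at 2.99, 2.75, 0.839 and 2.98 CPM in Misc DKO and had 2 counts in SMP DKO replicate 1 and 0 in replicate 2. The ratio, 17.1-fold higher in Misc DKO, has a 95% counting interval of 4.74 to 141. The fitted log2 fold change of Col25a1 was 3.99 with both SMP DKO libraries and 3.13 against replicate 1 alone.

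Basement membrane genes were split. Of 24 tested, 17 were higher and 4 lower in Misc DKO (median 1.22), and the counts were the same against replicate 1 alone. Nid1, nidogen, a linker of laminin and collagen IV, was at 1822, 1822, 2011 and 1740.2 CPM in Misc DKO and 211 and 501 CPM in SMP DKO (log2 fold change 2.38 [3.14], SE 0.22, adjusted p = 4.4e-09). Lamb1, a laminin chain, rose by 2.68 [3.49] log2 and Sparc, a collagen-binding matricellular protein, by 2.91 log2. Lama5, the laminin alpha 5 chain, was lower in Misc DKO, at 8.34, 6.71, 3.72 and 7.38 CPM in Misc DKO and 125 and 117 CPM in SMP DKO (log2 fold change −4.21, SE 0.41, adjusted p = 2.6e-07). Lama3, another laminin chain, and Agrn (agrin, which clusters acetylcholine receptors) were lower as well, with log2 fold changes of −2.43 and −0.62. Agrn was not called without SMP DKO replicate 1 (−0.48, adjusted p = 0.076).

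All 13 small leucine-rich proteoglycans tested were higher in Misc DKO (median 3.23), and 12 were so against replicate 1 alone (median 4.62). Fmod, Kera, Chad and Aspn of this list are also tendon markers. Aspn, asporin, which binds collagen and TGF-beta, was at 1395, 2029, 2176 and 2098 CPM in Misc DKO and 65.9 and 172 CPM in SMP DKO (log2 fold change 4.02 [4.88], SE 0.32, adjusted p = 3.5e-09). Of 21 matricellular genes, 20 were higher and 0 lower (median 2.25), and 19 were higher against replicate 1 alone (median 2.88). Thbs4, Comp and Tnc of the matricellular list stand in the tendon list too. Postn, periostin, which is raised in many injured and fibrotic tissues, was at 4377, 6294, 5859.5 and 7075 CPM in Misc DKO and 576 and 1065 CPM in SMP DKO (log2 fold change 2.85, SE 0.32, adjusted p = 3.2e-07). The groups did not overlap, and the value against replicate 1 alone was 3.37 (adjusted p = 1.8e-06). Of 26 elastic fibre and glycoprotein genes, 21 were higher, among them Mfap4 and Fbln1 (fibulin 1) by 3.70 [4.71] and 3.09 [4.30] log2, and 2 were lower. The lower ones were Vtn, vitronectin, with a log2 fold change of −0.86, and Emilin2, with −0.79, of which Emilin2 was not called against replicate 1 alone (−0.32, adjusted p = 0.17).

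Of 31 collagen processing and crosslinking enzymes, 29 were higher and 2 lower in Misc DKO, with the same counts against replicate 1 alone and a median of 1.89. Lox, lysyl oxidase, which starts collagen crosslinking, was at 1363, 1399, 1286 and 1818 CPM in Misc DKO and 94.6 and 189.9 CPM in SMP DKO (log2 fold change 3.37 [3.96], SE 0.23, adjusted p = 1.7e-11). Loxl4, its relative, was at 215, 181, 183 and 246 CPM in Misc DKO and 4.08 and 20.0 CPM in SMP DKO (log2 fold change 4.12 [5.66], SE 0.38, adjusted p = 8.1e-08). Adamts2 and Adamts3, which cut the amino-terminal propeptide from procollagen, rose by 3.02 [4.46] and 2.86 log2. Adamts14, of the same procollagen protease subfamily, fell instead, at 9.58, 11.3, 6.47 and 7.38 CPM in Misc DKO and 28.6 and 27.4 CPM in SMP DKO (log2 fold change −1.69, SE 0.17, adjusted p = 1.8e-08), and its value against replicate 1 alone was −1.71 (adjusted p = 3.3e-07). Of 28 matrix proteases and inhibitors, 16 were higher and 3 lower. Mmp2, gelatinase A, was at 4568, 4217, 4926 and 5055 CPM in Misc DKO and 299 and 749.8 CPM in SMP DKO (log2 fold change 3.16 [3.98], SE 0.24, adjusted p = 1.1e-10), with no overlap. Mmp15, a membrane-bound protease, and Adamts20 were lower, with log2 fold changes of −3.33 and −3.97. Reck, a membrane-anchored protease inhibitor, was higher by 2.46 [3.12] log2.

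Genes of the muscle progenitor program were far lower in Misc DKO. Of 17 myogenic transcription factors and regulators tested, 14 were lower and 2 higher in Misc DKO, where 29.7% of all genes were called lower. The median was −6.03, and 14 and 3 were so against replicate 1 alone. Pax7 (chr4:139737059-139833530) was at 0.622, 2.63, 1.32 and 0.259 CPM in Misc DKO and 125 and 100.2 CPM in SMP DKO (log2 fold change −6.50, SE 0.41, adjusted p = 1.1e-09). Every Misc DKO library was below 3 CPM and both SMP DKO libraries were above 100 CPM; the value against replicate 1 alone was −6.64 (adjusted p = 4.8e-09). Myod1, which commits cells to the muscle lineage (chr7:46376474-46379092), was at 0.871, 7.30, 3.24 and 0.389 CPM in Misc DKO and 338 and 353 CPM in SMP DKO (log2 fold change −6.84, SE 0.43, adjusted p = 1.9e-09). Myf5, a factor of the same family, was at 0.622, 4.55, 0.719 and 0.389 CPM in Misc DKO and 152 and 122 CPM in SMP DKO (log2 fold change −6.41, SE 0.47, adjusted p = 9.2e-09). For these factors the groups were far apart, and the calls held against replicate 1 alone with log2 fold changes of −6.80 for Myod1 and −6.55 for Myf5.

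Pax3, the paralog of Pax7, had no count in any Misc DKO library and 5.14 and 2.67 CPM in SMP DKO. Against a floor of 3 counts over the Misc DKO group, it was at least 42.2-fold lower. Pitx3 and Lbx1, homeobox factors of muscle cells, each had 1 count in all of Misc DKO, against 8.30 and 8.44 CPM and 4.74 and 4.15 CPM in SMP DKO. The ratios were 272-fold for Pitx3 (95% counting interval 48.8 to 10733) and 144-fold for Lbx1 (25.9 to 5699). The 2 factors of the list that were higher in Misc DKO have wider roles. Meox2, a mesenchyme homeobox factor, was at 172, 145, 188 and 131 CPM in Misc DKO and 19.1 and 24.7 CPM in SMP DKO (log2 fold change 2.86, SE 0.19, adjusted p = 1.1e-11). Snai1, a repressor active in mesenchymal cells, was at 61.6, 43.2, 47.0 and 69.4 CPM in Misc DKO and 17.8 and 25.6 CPM in SMP DKO (log2 fold change 1.35, SE 0.19, adjusted p = 1.4e-06).

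Satellite cell surface genes showed the same picture. Of 26, 21 were lower and 3 higher in Misc DKO (median −2.27), and 19 and 4 were so against replicate 1 alone. Cdh15, M-cadherin, which holds satellite cells to the fibre, was at 0.498, 3.71, 0.959 and 0.389 CPM in Misc DKO and 192 and 163 CPM in SMP DKO (log2 fold change −6.96, SE 0.53, adjusted p = 2.1e-08). Itga7, the integrin by which satellite cells bind laminin, was at 6.84, 13.7, 7.55 and 6.09 CPM in Misc DKO and 418 and 369 CPM in SMP DKO (log2 fold change −5.52, SE 0.24, adjusted p = 1.4e-12). Calcr, the calcitonin receptor of quiescent satellite cells, was at 0.498, 4.67, 2.16 and 0.389 CPM in Misc DKO and 157 and 98.7 CPM in SMP DKO (log2 fold change −6.02, SE 0.53, adjusted p = 1.3e-07). All 3 were several-fold lower in every Misc DKO library than in either SMP DKO library, and against replicate 1 alone the values were −7.06, −5.60 and −6.30. Chrdl2, a chordin-like BMP antagonist, and Fgfr4, an FGF receptor of myoblasts, were lower, with log2 fold changes of −6.71 and −5.76. The 3 higher members were Sdc3, Spry1 and Itgb1, by 1.15, 0.63 and 0.41 log2, of which Spry1 and Itgb1 were not called when libraries were scaled by their totals alone.

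The residue of myogenic RNA in Misc DKO was uneven across libraries at single genes, while the library medians were close. Over the 44 genes of the myogenic factor, satellite cell and fusion lists that were called lower, the Misc DKO libraries had medians of 6.83% to 7.66% of the SMP DKO mean. Misc DKO replicate 2 was the highest of the 4 libraries for 24 of the 44 genes, Pax7, Myod1, Myf5, Cdh15 and Calcr among them. How often replicate 2 was the highest over all genes tested was not counted. In bulk RNA, fewer cells of a type and less RNA per cell cannot be told apart.

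Genes of later muscle differentiation were lower in Misc DKO too. Of 16 fusion and neuromuscular receptor genes, 10 were lower and 4 higher (median −2.76), with the same counts against replicate 1 alone. Chrna1, the alpha subunit of the muscle acetylcholine receptor, was at 0.373, 2.75, 1.68 and 0.130 CPM in Misc DKO and 94.1 and 102 CPM in SMP DKO (log2 fold change −6.27, SE 0.38, adjusted p = 2.5e-10). Tmem8c, myomaker, a membrane protein needed for myoblast fusion, was at 0.124, 0.479, 0.240 and 0.259 CPM in Misc DKO and 12.7 and 13.9 CPM in SMP DKO (log2 fold change −5.52, SE 0.62, adjusted p = 2.6e-07). Neither gene overlapped between groups. The 4 higher genes were Cdh2 (N-cadherin), Jam2, Lrp4 (the agrin receptor) and Boc, by 1.87, 1.87 [3.48], 1.62 and 1.12 log2.

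Of 29 sarcomere and fibre genes, 26 were lower and 1 higher in Misc DKO (median −2.57), and against replicate 1 alone 22 were lower and 2 higher (median −1.62). Summed over the list, Misc DKO had 404 to 489 CPM, SMP DKO replicate 1 712 CPM and replicate 2 1328 CPM. Actn3, the actinin of fast fibres, was at 2.61, 5.39, 2.28 and 2.85 CPM in Misc DKO and 87.2 and 98.8 CPM in SMP DKO (log2 fold change −4.81, SE 0.22, adjusted p = 5.9e-14). Ryr1, the calcium release channel of muscle, was at 1.62, 1.08, 0.719 and 0.259 CPM in Misc DKO and 35.6 and 19.4 CPM in SMP DKO (log2 fold change −4.88, SE 0.35, adjusted p = 5.3e-11). Both stood well apart between groups. Actc1, cardiac actin, which shares most of its coding sequence with other actins and so may share reads, was at 0.622, 0.239, 0.359 and 0 CPM in Misc DKO and 48.4 and 35.7 CPM in SMP DKO (log2 fold change −7.04, SE 0.68, adjusted p = 9.7e-08). The higher gene was Tpm1, a tropomyosin of muscle and other cells, by 0.43 log2, and it was not called after DESeq2 or total-count scaling, nor without SMP DKO replicate 1 (0.16, adjusted p = 0.51).

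The dystrophin complex and its neighbours divided by member. Of 26 genes, 13 were lower and 6 higher in Misc DKO (median −0.53), against 29.7% and 29.8% of all genes tested. Dmd, dystrophin, was at 20.7, 27.5, 29.7 and 26.2 CPM in Misc DKO and 156 and 117 CPM in SMP DKO (log2 fold change −2.39, SE 0.14, adjusted p = 1.6e-12). Sgca, the sarcoglycan of striated muscle, was at 0.996, 1.08, 0.359 and 0.389 CPM in Misc DKO and 21.1 and 22.1 CPM in SMP DKO (log2 fold change −4.91, SE 0.38, adjusted p = 1.3e-10). Sgce and Sgcd, sarcoglycans that are also found outside striated muscle, were higher, by 1.47 and 3.02 log2, as was Sspn, sarcospan, by 1.38 log2. Des itself was lower, at −5.28 log2 (adjusted p = 5.4e-15), and Syne1 was higher by 0.86 log2 (adjusted p = 8.6e-05), within the mutant. All of these kept their calls against replicate 1 alone.

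**Figure D3:**
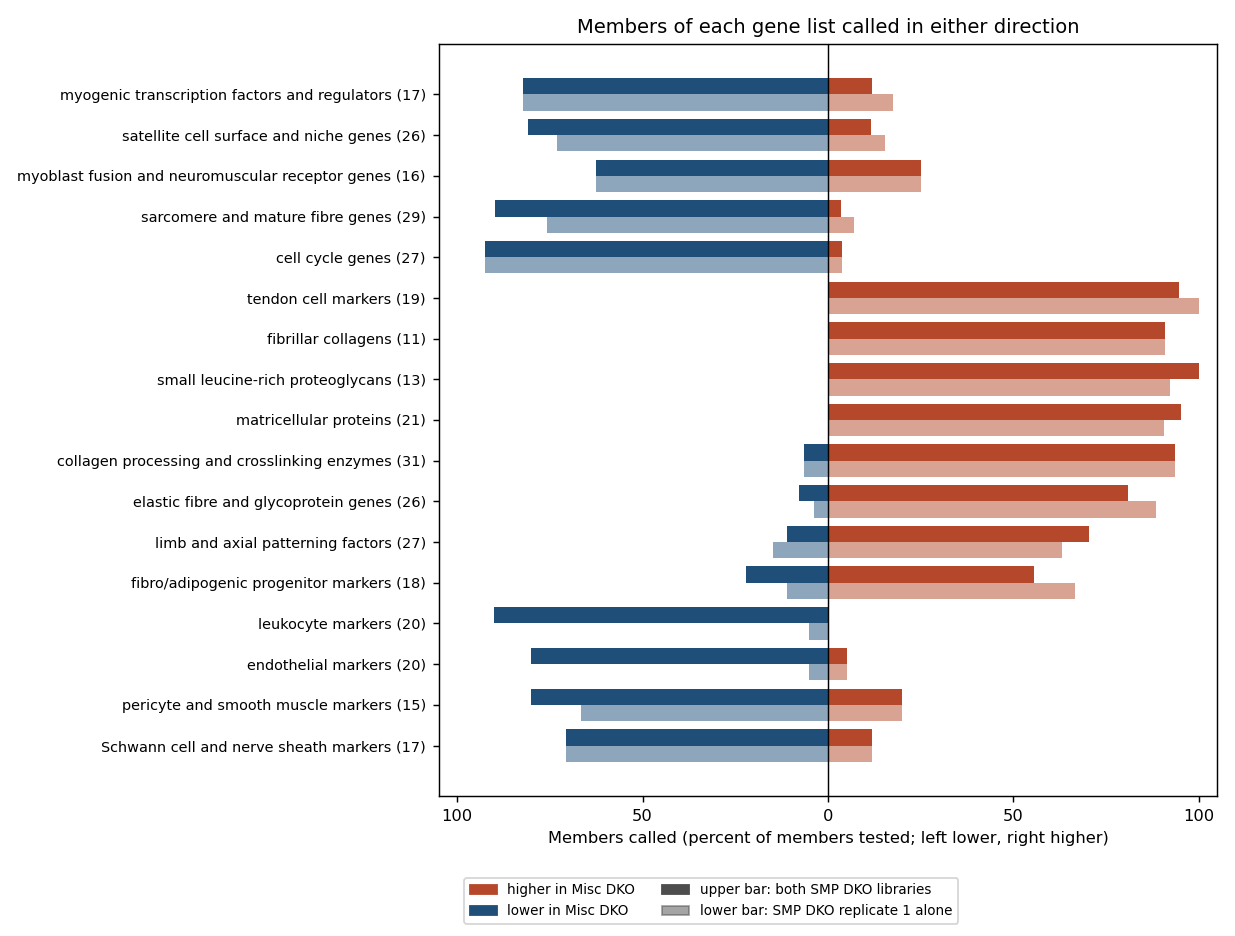
Percent of the tested members of 17 gene lists (number tested in brackets) called higher (right) or lower (left) in Misc DKO; the upper bar of each pair uses both SMP DKO libraries and the lower, paler bar SMP DKO replicate 1 alone. Tendon, collagen and matrix lists point right and myogenic, sarcomere and cell cycle lists point left with either comparison, whereas the leukocyte bar shrinks to 1 and the endothelial bar to 1 lower member of 20 each.

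Cell cycle genes were lower in Misc DKO. Of 27, 25 were lower and 1 higher (median −2.45), with the same counts against replicate 1 alone. Mki67, a marker of dividing cells, was at 4.73, 10.8, 5.51 and 6.99 CPM in Misc DKO and 164 and 101 CPM in SMP DKO (log2 fold change −4.24, SE 0.37, adjusted p = 5.2e-08). Top2a, the topoisomerase of replicating cells, was at 3.86, 6.47, 5.51 and 2.98 CPM in Misc DKO and 118 and 89.2 CPM in SMP DKO (log2 fold change −4.45, SE 0.40, adjusted p = 7.7e-08). The groups were separate for both. The D-type cyclins parted. Ccnd1 was at 4.73, 3.47, 5.99 and 5.18 CPM in Misc DKO and 86.4 and 95.4 CPM in SMP DKO (log2 fold change −4.23, SE 0.22, adjusted p = 5.5e-13). Ccnd2, the 1 higher gene, was at 181, 246, 251 and 198 CPM in Misc DKO and 41.5 and 58.8 CPM in SMP DKO (log2 fold change 2.13, SE 0.15, adjusted p = 3.1e-11).

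Signalling lists moved less uniformly. In the TGF-beta, activin and BMP list, 22 of 41 genes were higher and 8 lower in Misc DKO (median 0.54). Of all genes tested, 29.8% were higher and 29.7% lower. Among ligands, Mstn, myostatin, a brake on muscle growth, was at 37.5, 36.2, 46.1 and 49.3 CPM in Misc DKO and 6.06 and 3.26 CPM in SMP DKO (log2 fold change 3.16, SE 0.38, adjusted p = 6.2e-07), and Bmp5 was higher by 2.49 [3.36] log2. Inhbb, an activin subunit, was lower, at −1.81 log2. The receptor Acvr2a and the BMP target Id1 were lower, with log2 fold changes of −0.89 and −1.68.

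In the Wnt list, 16 of 32 were higher and 4 lower. The higher ones were led by secreted antagonists. Wif1, Wnt inhibitory factor, was at 369, 225, 209.7 and 384 CPM in Misc DKO and 1.71 and 18.2 CPM in SMP DKO (log2 fold change 4.93 [7.44], SE 0.66, adjusted p = 1.3e-05), with SMP DKO replicate 2 well above replicate 1 but below every Misc DKO library. Dkk3 and Dkk2 were higher by 3.39 and 2.95 [4.64] log2. The antagonist Sfrp5 and the receptor Fzd4 were lower, with log2 fold changes of −4.11 and −0.88.

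In the Notch list, 13 of 22 were lower and 5 higher (median −1.05). Notch3, a receptor of satellite cells and pericytes, was at 25.1, 33.6, 17.4 and 20.3 CPM in Misc DKO and 556 and 532 CPM in SMP DKO (log2 fold change −4.49, SE 0.27, adjusted p = 2.8e-10). The ligand Jag2 and the feedback regulator Nrarp were lower, with log2 fold changes of −4.13 and −4.08, and the coactivators Maml2 and Maml3 were higher by 1.31 and 1.77 log2. These Notch calls held against replicate 1 alone.

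Of 32 growth factors and receptors, 17 were higher and 11 lower, against 29.8% and 29.7% of all genes tested. Igf1, a growth factor for fibres and progenitors, was at 467, 575, 729 and 488 CPM in Misc DKO and 34.3 and 73.6 CPM in SMP DKO (log2 fold change 3.39 [4.05], SE 0.28, adjusted p = 4e-09). Pdgfrb, a receptor of mesenchymal cells, was higher by 2.57 log2, while the ligand Pdgfb was at 0.747, 0.599, 0.479 and 0.647 CPM in Misc DKO and 16.2 and 23.9 CPM in SMP DKO (log2 fold change −4.99, SE 0.56, adjusted p = 1.2e-07). Gdnf, a neurotrophic factor, was at 1.87, 3.47, 2.16 and 2.59 CPM in Misc DKO and 52.3 and 57.6 CPM in SMP DKO (log2 fold change −4.44, SE 0.21, adjusted p = 7.2e-14). Neither Pdgfb nor Gdnf overlapped between groups.

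Integrin subunits went both ways. Of 19 subunits, 9 were higher and 7 lower, against 29.8% and 29.7% of all genes tested. The collagen-binding Itga11, Itga10 and Itga2 were higher, by 3.31 [4.73], 2.87 and 4.07 [5.36] log2, and the laminin-binding Itga7, Itga6 and Itgb4 were lower, with log2 fold changes of −5.52, −3.28 and −4.41. All 6 kept their calls against replicate 1 alone.

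Chemokine, cytokine and complement genes depended on the SMP library. With both libraries 14 of 33 were higher and 5 lower in Misc DKO (median 0.81), and against replicate 1 alone 21 were higher and 2 lower (median 1.71). Cxcl14, a chemokine of stromal cells, was at 522, 576, 841 and 516 CPM in Misc DKO and 16.5 and 83.6 CPM in SMP DKO (log2 fold change 3.62, SE 0.49, adjusted p = 1.2e-05), and its value against replicate 1 alone was 5.23 (adjusted p = 2.3e-09). C1ra and C1s1, proteases that start the complement cascade, were higher by 2.12 [3.66] and 2.09 [3.53] log2. C3, the central complement component, was at 387, 243, 238 and 409.7 CPM in Misc DKO and 7.64 and 356 CPM in SMP DKO (log2 fold change 0.82, SE 0.77, adjusted p = 0.38). Replicate 2 lay within the Misc DKO range for C3 while replicate 1 lay far below it, so C3 was called only against replicate 1 alone, at 5.39 (adjusted p = 2.8e-09).

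Markers of other cell types separated what held from what did not. Of 20 leukocyte markers, 18 were lower in Misc DKO with both SMP libraries and 1 was lower against replicate 1 alone. Cd74, the invariant chain of antigen-presenting cells, was at 1.37, 3.59, 2.28 and 0.777 CPM in Misc DKO and 3.43 and 274 CPM in SMP DKO (log2 fold change −6.09, SE 1.36, adjusted p = 0.0014), and against replicate 1 alone at −0.75 (adjusted p = 0.74). Lyz2, lysozyme of macrophages and neutrophils, was at 1.74, 4.07, 2.52 and 2.59 CPM in Misc DKO and 4.22 and 204 CPM in SMP DKO (log2 fold change −5.24, SE 1.26, adjusted p = 0.0024), and against replicate 1 alone at −0.61 (adjusted p = 0.77). In both genes replicate 2 stood apart from the other 5 libraries. Csf1r, the receptor of macrophage colony-stimulating factor, reversed sign, at −3.74 with both (adjusted p = 0.014) and 3.35 (adjusted p = 0.28) against replicate 1 alone. The macrophage-associated genes Retnla and F13a1, with no count in replicate 1, had log2 fold changes of −5.31 and −4.38 with both, and neither was called against replicate 1 alone (adjusted p = 0.52 and 0.33). Ptprc, the common leukocyte antigen, had 3 counts in all of Misc DKO, and it was at 0.132 and 14.4 CPM in SMP DKO. Ptprc was not called against replicate 1 alone (adjusted p = 0.93).

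Endothelial markers behaved alike, with 16 of 20 lower with both libraries and 1 against replicate 1 alone. Their summed level was 283 to 379.9 CPM in Misc DKO, 257 CPM in SMP DKO replicate 1 and 1739 CPM in replicate 2. Tie1, an endothelial receptor kinase, was at 5.48, 0.958, 1.20 and 1.17 CPM in Misc DKO and 4.48 and 52.4 CPM in SMP DKO (log2 fold change −3.68, SE 0.95, adjusted p = 0.0039), and against replicate 1 alone at −1.02 (adjusted p = 0.5). Among adipocyte markers 7 of 9 were lower with both and 4 against replicate 1 alone, and Fabp4, a fatty acid carrier shared by adipocytes and capillaries, was at 15.4, 5.03, 9.11 and 3.11 CPM in Misc DKO and 16.9 and 186 CPM in SMP DKO, and was not called against replicate 1 alone (adjusted p = 0.45). The 1 erythroid gene tested, Alas2, was lower with both (−2.75) and not called against replicate 1 alone (−0.75, adjusted p = 0.54); 7 of the 10 erythroid genes listed had no count in these 6 libraries.

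Fibro/adipogenic progenitor markers were mostly higher in Misc DKO. Of 18, 10 were higher and 4 lower with both libraries, and 12 and 2 against replicate 1 alone. Pdgfra, the receptor that defines these cells, was at 351, 352, 399.7 and 291 CPM in Misc DKO and 10.1 and 112 CPM in SMP DKO (log2 fold change 2.52, SE 0.55, adjusted p = 0.0012), and its value against replicate 1 alone was 5.11 (adjusted p = 2.1e-14). Smoc2, a calcium-binding matrix protein, was at 1691, 1592, 1858 and 1177 CPM in Misc DKO and 53.9 and 457 CPM in SMP DKO (log2 fold change 2.63 [4.88], SE 0.54, adjusted p = 0.00062). In both genes replicate 2 held several times the level of replicate 1 but stayed below every Misc DKO library. Ly6a, the Sca-1 antigen, was at 7.96, 5.63, 3.72 and 5.18 CPM in Misc DKO and 3.43 and 78.8 CPM in SMP DKO (log2 fold change −2.86, SE 0.68, adjusted p = 0.0022), and against replicate 1 alone its sign turned, at 0.72 (adjusted p = 0.2). Ly6c1 was at 2.99, 3.59, 3.12 and 1.55 CPM in Misc DKO and 4.48 and 83.9 CPM in SMP DKO, and against replicate 1 alone it was not called (adjusted p = 0.17).

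Calls of pericyte and Schwann cell markers were nearly as many against replicate 1 alone. Of 15 pericyte and smooth muscle markers 12 were lower with both libraries and 10 against replicate 1 alone. Myh11, smooth muscle myosin, was at 11.2, 5.75, 7.67 and 5.57 CPM in Misc DKO and 122 and 149 CPM in SMP DKO (log2 fold change −4.16, SE 0.47, adjusted p = 2.3e-06). Of 17 Schwann cell markers 12 were lower in both comparisons. Sox10, the factor of the Schwann lineage, was at 0.373, 0.239, 0 and 0 CPM in Misc DKO and 8.70 and 7.85 CPM in SMP DKO (log2 fold change −5.64, SE 0.90, adjusted p = 2.4e-05). Both SMP DKO libraries carried Schwann cell transcripts such as Sox10. The summed Schwann list differed little, at 501 to 624 CPM in Misc DKO and 643 and 781 CPM in SMP DKO. The sum reached 812 and 844 CPM in SMP WT and 652 to 685 CPM in Misc WT. It also reached 689 to 871 CPM in FAP DKO, outside the comparison, so the sum does not single out SMP. The list shares Ncam1 with the satellite cell list and Erbb3 with the fusion list. The part of pericytes and Schwann cells in the differences of other genes was not tested.

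**Figure D4:**
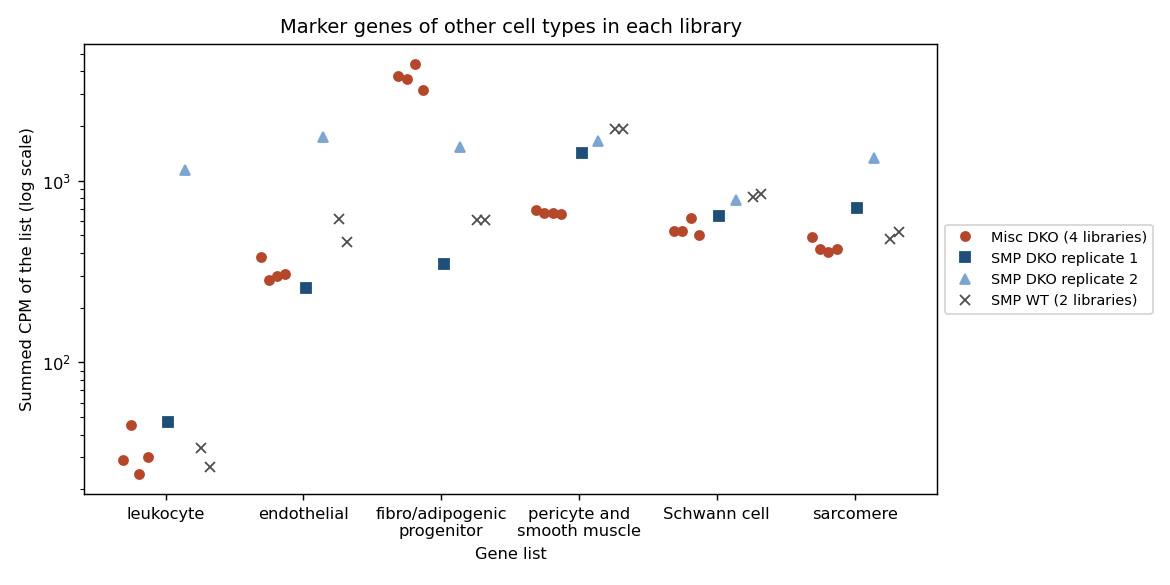
Summed CPM on a log scale of 6 gene lists in the Misc DKO libraries (circles), SMP DKO replicate 1 (squares), SMP DKO replicate 2 (triangles) and the SMP WT libraries (crosses). The leukocyte sum of SMP DKO replicate 2, 1142 CPM, stands above all others, which reach at most 47.2 CPM, whereas pericyte and Schwann sums are alike in both SMP DKO libraries.

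Genes of cartilage type, of limb patterning and of the immediate early response were mostly higher in Misc DKO. These lists share members with earlier ones. Comp, Chad and Cilp of the cartilage list and Egr1 and Egr2 of the immediate early list are tendon markers. Meox2 of the limb list is also in the myogenic factor list. Of 16 cartilage-type genes, 12 were higher and 1 lower (median 3.46, or 4.13 against replicate 1 alone). Cilp2, a cartilage intermediate layer protein, was at 1918, 1031, 1258 and 1737 CPM in Misc DKO and 37.4 and 116 CPM in SMP DKO (log2 fold change 4.27 [5.32], SE 0.44, adjusted p = 4.6e-07). Sox9, the master factor of chondrocytes, was the lower gene, at 20.2, 27.5, 21.2 and 18.9 CPM in Misc DKO and 93.8 and 93.0 CPM in SMP DKO (log2 fold change −2.09, SE 0.14, adjusted p = 8.2e-12). Of 27 limb and axial patterning factors, 19 were higher and 3 lower. Shox2 and Meox1, homeobox factors of the limb and the somite, were higher by 3.01 [3.73] and 3.13 [3.87] log2, and Tbx4, a factor of the hindlimb, was lower, at −1.32 log2. Of 20 immediate early and dissociation genes, 15 were higher and 2 lower (median 0.94). Fos was at 3961, 3342, 3291 and 3925 CPM in Misc DKO and 1132 and 1469.8 CPM in SMP DKO (log2 fold change 1.48, SE 0.14, adjusted p = 6.9e-09), and Socs3, a feedback inhibitor of cytokine signals, was higher by 1.60 log2.

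Several genes outside the lists were among the 15 with the largest change each way. Cthrc1, a secreted collagen triple-helix protein, was higher in Misc DKO, at 55.0, 43.2, 38.2 and 50.2 CPM in Misc DKO and 0.659 and 4.00 CPM in SMP DKO (log2 fold change 4.36 [6.13], SE 0.40, adjusted p = 2.3e-08). Cpz, a carboxypeptidase that binds Wnt, was at 55.4, 29.0, 20.9 and 49.9 CPM in Misc DKO and 0.264 and 3.70 CPM in SMP DKO (log2 fold change 4.34 [7.14], SE 0.68, adjusted p = 5.1e-05). Vipr2, a receptor of vasoactive intestinal peptide, was at 168, 229, 152 and 212 CPM in Misc DKO and 5.40 and 15.1 CPM in SMP DKO (log2 fold change 4.23 [5.15], SE 0.35, adjusted p = 2.2e-08). Cybrd1, an iron reductase, Pamr1 and Ccbe1, a secreted protein of lymphatic growth, followed with 4.18 [5.0], 4.14 [5.64] and 4.08 [5.26] log2. Fndc3c1 was lower in Misc DKO, at 0.498, 1.08, 0.599 and 0.130 CPM in Misc DKO and 84.1 and 55.1 CPM in SMP DKO (log2 fold change −6.87, SE 0.35, adjusted p = 1.6e-12). Bves, a membrane protein of striated muscle, was at 0, 0.718, 0.359 and 0 CPM in Misc DKO and 31.8 and 24.3 CPM in SMP DKO (log2 fold change −6.60, SE 0.45, adjusted p = 1.8e-11). In Misc DKO neither passed 2 CPM in any library. Vgll2, a cofactor of muscle TEAD factors, was at 0.373, 1.92, 0.719 and 0.389 CPM in Misc DKO and 82.5 and 76.3 CPM in SMP DKO (log2 fold change −6.51, SE 0.31, adjusted p = 1.2e-13). Rbm20, a splicing factor of titin, was at 0.373, 1.92, 0.839 and 0.518 CPM in Misc DKO and 91.6 and 72.7 CPM in SMP DKO (log2 fold change −6.46, SE 0.26, adjusted p = 5.2e-15). Asb5, Fam132b (erythroferrone), Iqsec3 and Aim1 were lower, with log2 fold changes of −6.39, −6.70, −6.42 and −6.32. The rule for these genes required that their calls hold against replicate 1 alone and that their libraries not overlap.

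In WT muscle the same populations differed in 8591 genes (60.6% of those tested), 4341 (30.6%) higher in Misc WT and 4250 (30.0%) lower. Of the genes called, 6422 had the same direction in both genotypes, which is 76.2% of the DKO calls and 74.8% of the WT calls, and 114 had opposite directions. The difference of the 2 population differences, DKO minus WT, was called for 1268 genes (8.94%), 653 of them positive (4.61%) and 615 negative (4.34%). Opposite fold changes add up in this difference, so genes called in opposite directions pass its test almost by construction. Without SMP DKO replicate 2, 399 of the positive and 302 of the negative calls were made again, 701 in all. Of the 114 genes of opposite direction, each had this difference called, and 71 kept their DKO call against replicate 1 alone, 37 higher and 34 lower in Misc DKO.

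Some genes of opposite direction are matrix genes. Postn (chr3:54359267-54391041) was higher in Misc than in SMP in DKO muscle, as given above, but in WT muscle it was at 675, 539.9, 428 and 599 CPM in Misc and 1015 and 1299 CPM in SMP (log2 fold change −1.05, adjusted p = 0.0021). The difference between genotypes was 3.89 log2 (SE 0.40, adjusted p = 5.4e-06), and 4.41 without SMP DKO replicate 2. Col22a1, a collagen of the muscle-tendon junction, was at 916, 747, 759.9 and 956 CPM in Misc DKO and 148 and 177 CPM in SMP DKO (log2 fold change 2.38, SE 0.36, adjusted p = 2.8e-05). In WT it was at 236, 186, 169 and 209.8 CPM in Misc and 426 and 477 CPM in SMP, and the difference between genotypes was 3.55 log2 (SE 0.47, adjusted p = 0.00016). Misc DKO libraries were thus above, and Misc WT libraries below, every SMP library of their genotype for Postn and Col22a1.

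Chodl, chondrolectin, was at 1006, 1030.0, 1108 and 1234 CPM in Misc DKO and 453 and 309 CPM in SMP DKO, with 407, 329, 309 and 372 CPM in Misc WT and 998 and 945 CPM in SMP WT. Its difference between genotypes was 2.98 log2 (SE 0.34, adjusted p = 1.3e-05). Rgs4, a regulator of G-protein signalling, was at 38.7, 62.0, 40.3 and 58.8 CPM in Misc DKO and 14.6 and 29.3 CPM in SMP DKO, with 4.01, 5.44, 2.28 and 2.16 CPM in Misc WT and 138 and 121 CPM in SMP WT. The difference of Rgs4 was 6.36 log2 (SE 0.49, adjusted p = 4.4e-07), though within DKO its population difference was 1.19 [1.78] with both libraries and 0.78 (adjusted p = 0.095) without SMP DKO replicate 1. For Chodl and Rgs4 the SMP level was lower in DKO than in WT and the Misc level higher. Frzb, a secreted Wnt antagonist, was at 20.5, 6.35, 7.55 and 10.2 CPM in Misc DKO and 0.659 and 1.78 CPM in SMP DKO, with 0.295, 1.03, 0.546 and 0.341 CPM in Misc WT and 1.70 and 2.37 CPM in SMP WT, a difference of 5.07 log2 (SE 0.76, adjusted p = 0.00011). Serinc2 was lower in Misc in both genotypes, and less so in DKO, with a difference of 5.22 log2.

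Some tendon genes differed further in DKO than in WT muscle, while for 10 of 19 tendon markers no difference between genotypes was called. Scx was at 81.7, 69.0, 67.7 and 94.1 CPM in Misc WT and 19.9 and 19.1 CPM in SMP WT, and the population difference was 1.61 log2 larger in DKO (SE 0.31, adjusted p = 0.0017). Aspn was at 327, 272, 253 and 209 CPM in Misc WT and 104 and 124 CPM in SMP WT, with a difference of 2.80 log2 (SE 0.37, adjusted p = 8e-05). Mkx had a difference of 1.06 log2, though its level was lower in DKO than in WT in both populations. In WT, Mkx was at 188, 171, 175 and 197 CPM in Misc and 22.5 and 20.8 CPM in SMP. Thbs4, Itga10 and Mmp2 had differences of 0.95, 2.04 and 1.52 log2. Without SMP DKO replicate 2 these 6 genes were still called, with differences of 1.62, 3.65, 1.15, 1.35, 2.09 and 2.33. Tnmd did not pass this test (0.76, adjusted p = 0.19), and neither did Pax7 (2.23, adjusted p = 0.09). Fmod, Angptl7, Chad and Comp were not called either, at −0.43, −1.57, −0.51 and −1.57. Without SMP DKO replicate 2 their values were 0.70, 0.87, 0.51 and 0.0007. Of the 19 tendon markers, 7 had a positive and 2 a negative difference called, Col14a1 among the negative. Over all genes tested the shares were 4.61% and 4.34%.

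The most negative of the named differences moved with SMP DKO replicate 2. The 6 genes picked for the most negative values among those called with at least 20 CPM in 1 group, Ces1d, C3, Kcp, Ifi205, Dpep1 and Col14a1, ranged from −4.81 to −4.03 log2. Without SMP DKO replicate 2 none of the 6 was called, at −2.69 for Ces1d and −0.08 for C3, and Dpep1 and Col14a1 changed sign, to 0.72 and 0.39. The calls of C3, Ifi205, Dpep1 and Col14a1 were also lost without either SMP WT library, with only the compared libraries and with a replicate block. Dpep1, a dipeptidase, was at 160.2, 163, 220.2 and 113 CPM in Misc DKO and 0.922 and 63.3 CPM in SMP DKO, with 241, 286, 343 and 284 CPM in Misc WT and 3.40 and 1.93 CPM in SMP WT. Pdgfra behaved alike, at −2.99 (adjusted p = 0.021) with both and −0.40 (adjusted p = 0.4) without replicate 2. All 6 WT libraries of these populations held both Xist, at 90.5 to 469 CPM, and Ddx3y, at 66.0 to 168 CPM, whereas 5 of the 6 DKO libraries held Xist and at most 0.130 CPM of Ddx3y. The part of sex-linked RNA in the genotype differences was not tested.

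**Figure D5:**
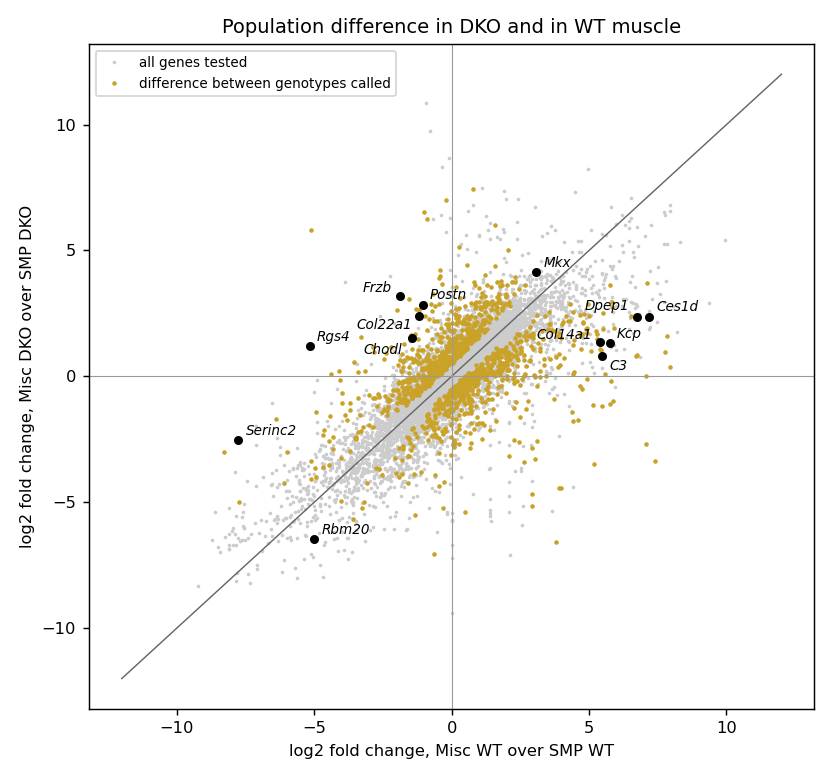
Log2 fold change of Misc over SMP in WT muscle (x axis) and in DKO muscle (y axis) for all 14179 genes tested; the 1268 genes whose difference between genotypes was called are in yellow and 13 named genes are labelled. Postn, Col22a1, Frzb, Chodl and Rgs4 lie in the upper left, higher in Misc DKO and lower in Misc WT, and C3, Dpep1, Col14a1, Ces1d and Kcp lie on the right below the diagonal.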

How the data were processed

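RNA was sequenced from 20 mouse leg muscle libraries of 3 populations in DKO and WT, in 6 groups. The deposited table holds raw counts per gene, not normalized; the authors mapped reads to mm10 with RefSeq annotation using the OSA aligner, per the series' design text. The sources used here name no counting tool or strand setting, so overlapping and antisense genes cannot be told apart, and genes with near-identical copies may share reads. The table has 24393 genes, of which 24312 were matched to RefSeq by identifier and 52 symbols damaged by a spreadsheet were restored; 5031 had no count. Genes reaching a CPM worth 10 counts in at least 2 libraries and 15 counts in all were kept, 14179 in number.

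Counts were scaled by TMM and fitted with edgeR 4.0.16 (R 4.3.3, limma 3.58.1) by quasi-likelihood, 1 mean per group over all 20 libraries, with Benjamini-Hochberg adjustment over all genes tested and a threshold of 0.05. The same fit gave the WT comparison and the difference between genotypes. A second fit left out SMP DKO replicate 2. Standard errors are the log2 fold change divided by the root of F. Intervals and floors (95%, 3 counts) cover counting error only. Depth was 5826000 to 8492813 counts in the 6 compared libraries. On simulated counts with 100 changed genes per size, the test found 85% of 2-fold and 98% of 4-fold changes between Misc DKO and SMP DKO. It called 8 unchanged genes among 13991 tested, changed ones included. Against replicate 1 alone, it found 59% and 96% and called 8 unchanged genes among 14124 tested. The simulated SMP DKO libraries shared a mean, so neither departed from the other as the real replicate 2 did.

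The members, the 31 gene lists (675 genes, 632 of them tested) and the tests were chosen with earlier results of these data known. Named genes were the 15 with the largest change each way, up to 4 each way per list, 6 each way for the genotype difference, 10 for replicate 2 over replicate 1, and 16 kept whatever their result. The 15 each way had a group mean of at least 20 CPM, no overlap of libraries and a call held against replicate 1 alone. Alternatives were DESeq2 1.42.0 (its Wald test and its size factors), library totals, no filter, other thresholds, a replicate block, only the compared libraries, and leaving out each library.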

Additional observations from a re-analysis of the deposited data

Results flagged for a closer look

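Of 158 genes named in the text that were looked at for a single Misc DKO library far from the other 3, 11 had one (by Dixon's 95% criterion), and chance flags about 1 in 20 groups. Misc DKO replicate 1 stood apart on the high side for Tie1 at 5.48 CPM. Misc DKO replicate 2 stood apart on the high side for Myf5 at 4.55 CPM, Fam132b at 6.71 CPM and Iqsec3 at 4.43 CPM. Misc DKO replicate 3 stood apart on the high side for Lbx1 at 0.120 CPM, Pitx3 at 0.120 CPM and Ddx3y at 89.6 CPM. Misc DKO replicate 3 stood apart on the low side for Xist at 0.360 CPM and Col25a1 at 0.839 CPM. Misc DKO replicate 4 stood apart on the high side for Thbs4 at 39112 CPM. Misc DKO replicate 4 stood apart on the low side for Ifi205 at 37.4 CPM. Pitx3 and Lbx1 rest on a single count there.

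For 42 genes named in the text the population difference, Misc minus SMP, differed between DKO and WT in edgeR's quasi-likelihood test of that difference at an adjusted p below 0.05 (8.94% of all genes tested). The positive log2 differences also called without SMP DKO replicate 2 were those of Rgs4 (6.36), Serinc2 (5.22), Frzb (5.07), Postn (3.89), Col22a1 (3.55), Chodl (2.98), Aspn (2.80), Itga10 (2.04), Scx (1.61), Meox2 (1.58), Mmp2 (1.52), Spry1 (1.45), Col13a1 (1.23), Meox1 (1.17), Dmd (1.08), Fzd4 (1.08), Mkx (1.06), Fos (1.04), Thbs4 (0.95), Lpl (0.92), Adamts3 (0.86) and Cdh2 (0.76). The negative log2 differences also called without SMP DKO replicate 2 were those of Lama3 (−1.97), Adamts14 (−1.85), Rbm20 (−1.46) and Tbx4 (−1.37). The positive log2 differences not called without SMP DKO replicate 2 were those of Col25a1 (4.40). The negative log2 differences not called without SMP DKO replicate 2 were those of Ces1d (−4.81), C3 (−4.65), Kcp (−4.43), Ifi205 (−4.38), Dpep1 (−4.37), Col14a1 (−4.03), Pdgfra (−2.99), Dkk2 (−2.88), Cxcl14 (−2.13), Mmp15 (−1.54), Ccnd1 (−1.13), Emilin2 (−1.08), Tpm1 (−1.01), Vtn (−0.97) and Sox9 (−0.64).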

How the results depend on the processing

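The count of 8432 genes stayed within 1.5 times of its value under DESeq2's Wald test (8340), DESeq2 size factors (8434), library totals (8529), no filter (8457), only the compared libraries (6940) and a threshold of 0.01 (6800). A test against a 2-fold change called 2618 genes, 1318 higher and 1300 lower. Library totals gave 2813 higher genes and a share of higher calls of 33.0%, against 50.1%. Leaving out 1 library at a time gave 6724 to 8432 calls, 3333 to 4220 higher and 3391 to 4212 lower, a share of higher calls of 49.6% to 52.1%, 484 to 522 called members of the lists (527 with all) and 194 to 219 of 220 named calls in the same direction. The genotype difference, 1268 genes, gave 800 with only the compared libraries, 1543 with DESeq2's Wald test, and 793 (without SMP WT replicate 1) to 1577 (without SMP DKO replicate 1) with 1 library left out. With 1 library left out, the log2 fold change ranged from −3.80 to 0.72 for Ly6a, −6.32 to 5.19 for Retnla, −4.73 to 3.35 for Csf1r and −5.38 to 5.83 for F13a1, and the genotype difference from −5.40 to 0.72 for Dpep1 and −5.03 to 0.39 for Col14a1. Each turned without SMP DKO replicate 2 and under no other alternative, and none was called there. The genotype differences of Dpep1 and Col14a1 also kept their sign and lost their call without SMP WT replicate 1 (adjusted p = 0.085 and 0.091), without SMP WT replicate 2 (0.12 for both), with only the compared libraries (0.13 and 0.14) and with a replicate block (0.13 and 0.2; edgeR). The causes were not tested. Fitted to the compared libraries alone, 195 of the 220 named calls were made; among those not made were the differences of Jam2, Smoc2, Pdgfra, Itgb1, Tpm1, Ly6a, Tie1, Fabp4, Csf1r, Kcp and Dpep1, and the genotype differences of C3 and Ifi205 were not called there either. No label says whether replicate numbers pair libraries, and with 2 SMP DKO libraries, whose deviations mirror each other, the data can hardly tell. Same-numbered Misc DKO and SMP DKO libraries correlated at −0.075 and −0.069 in their deviations, others at −0.005 to 0.075, and a replicate block gave 8044 calls, 1143 for the genotype difference and 205 named calls; Csf1r, Retnla, F13a1, Ly6a, Lyz2, Cd74, Ptprc, Tie1 and Fabp4 were among those not called, and the genotype differences of C3 and Ifi205 were not called either. With 2 SMP libraries per genotype, genes below about 1 CPM rest on a few counts.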

Other observations

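Further genes of the named set add to the picture of growth factors and lipid handling. Igf2, a growth factor of embryonic and regenerating muscle, was at 63.3, 21.8, 15.3 and 32.9 CPM in Misc DKO and 196 and 236 CPM in SMP DKO (log2 fold change −2.70, SE 0.50, adjusted p = 0.0003, edgeR's quasi-likelihood test), lower in every Misc DKO library, with replicate 1 the highest of the 4. Lpl, lipoprotein lipase, listed here as an adipocyte marker, was at 1038, 1136, 1445 and 841 CPM in Misc DKO and 280.4 and 455 CPM in SMP DKO (log2 fold change 1.60, SE 0.22, adjusted p = 1.9e-06), higher in every Misc DKO library, whereas the adipocyte factor Pparg was at 0.747, 1.44, 0.359 and 1.17 CPM in Misc DKO and 1.58 and 8.15 CPM in SMP DKO. Dpp4, a surface peptidase of fibroblast progenitors, was at 135, 110.0, 115 and 155 CPM in Misc DKO and 5.80 and 23.9 CPM in SMP DKO (log2 fold change 3.14 [4.48], SE 0.42, adjusted p = 8.2e-06). Igf2, Lpl and Dpp4 kept their calls against SMP DKO replicate 1 alone, and Pparg did not (adjusted p = 0.36).

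Entpd1 and Cmah, chosen after their values were seen, were the 2 genes called in opposite directions by the fits with and without SMP DKO replicate 2. Entpd1, an ectonucleotidase of leukocytes and vessels, was at 11.9, 8.26, 11.7 and 8.29 CPM in Misc DKO and 5.40 and 48.6 CPM in SMP DKO, with a log2 fold change of −1.41 (adjusted p = 0.021) with both and 0.91 (adjusted p = 0.012) against replicate 1 alone. Cmah, a sialic acid hydroxylase, was at 0.249, 0.718, 0.719 and 0.259 CPM in Misc DKO and 0 and 4.89 CPM in SMP DKO. With no count in SMP DKO replicate 1, Cmah was at least 1.23-fold higher in Misc DKO against a floor of 3 counts in that library, and its log2 fold change with both was −2.22 (adjusted p = 0.031).

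Outside the comparison, the FAP DKO libraries had Ddx3y at 0, 0.313, 144 and 0.0980 CPM and Xist at 397, 374, 0.387 and 530.4 CPM, so that replicate 3 of both Misc DKO and FAP DKO was the library with Y-linked RNA. No label says whether libraries of the same number share an animal.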
